A study of Mus musculus with 72 samples.

Results

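The newborn hippocampus and cerebral cortex of the mouse were compared through 12 of the 72 arrays of a study of Ts1Cje mice, 6 arrays of the hippocampus and 6 of the cerebral cortex, all labelled postnatal day (P) 1. Each array had been hybridised with labelled target prepared from total RNA of a single region. It reads 45101 probe sets, groups of short probes of which several can stand for the same gene. Of each region 3 arrays were of Ts1Cje mice and 3 of disomic mice. Ts1Cje mice carry an extra copy of the segment of mouse chromosome 16 (MMU16) between Sod1 and Znf295, joined to MMU12 by a translocation. The disomic mice were their littermates, from matings of Ts1Cje males with C57BL/6 females, and no mouse received any treatment. By the study's methods every region of an age was dissected from the same 3 Ts1Cje and 3 disomic mice, so that the 12 arrays stand for 6 mice, but nothing says whether a replicate number marks a mouse. The segment holds only some of the mouse genes that correspond to human chromosome 21 genes, which limits Ts1Cje as a model of Down syndrome. Genotype was a term of the comparison, so that each region difference is the mean over Ts1Cje and disomic mice, whose own differences could be unequal.

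The hippocampus and the neocortex arise side by side from the dorsal telencephalon. The hippocampus forms next to the cortical hem, a signalling centre at the medial edge of the pallium that releases Wnt and Bmp proteins and sends out Cajal-Retzius cells. The neocortex builds layers from the inside out, with corticothalamic neurons below and intracortical neurons above, and around birth its neurogenesis is nearly over, while the dentate gyrus of the hippocampus is still taking in progenitors and making granule neurons.

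Some arrays stood apart. The labels give all mice as female, yet the Y-linked gene Eif2s3y was read at 9.02 to 9.68 (log2) on 10 of the 12 arrays, with Xist, the RNA of the inactive X chromosome, at 1.97 to 2.52. On the other two, the hippocampus and cortex arrays of Ts1Cje replicate 3, Xist was 11.76 and 11.75 and Eif2s3y 2.16 and 2.90, so each region held 1 such array. The hippocampus array of disomic replicate 3 lay towards the cortex: the mean of 20 upper layer neocortical genes was 7.35 there, against 6.88 to 6.97 on the other hippocampal arrays and 7.74 to 7.95 on the cortical arrays. Over all probe sets the arrays correlated at 0.979 to 0.993 within the hippocampus and at 0.977 to 0.992 within the cortex, and at 0.975 to 0.989 between the regions.

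Between the hippocampus and the cortex, 1461 of 45101 probe sets (3.24%) were called, with a moderated t of at least 4 in size and an adjusted p of at most 0.05 in limma. Of these, 791 (1.75%) were higher and 670 (1.49%) lower in the hippocampus. On 1142 probe sets (2.53%) the arrays of the regions did not overlap, called or not. Taking for each gene the probe set with the highest mean, 853 of 18194 genes were called (4.69%), 512 higher (2.81%) and 341 lower (1.87%), and among the 7676 genes with a mean of at least 5 the share was 7.11%. The median difference over all genes was 0.01. Without the hippocampus array of disomic replicate 3, 1775 probe sets were called, 952 higher and 823 lower. Without both arrays that carried Xist, 1138 were called. With 24 group means over all 72 arrays 1000 were called, and 63 of the 90 called genes described here were among them. That fit kept a P15 array, labelled hippocampus, that correlated with the cerebellum and is described below. Its part in the lost calls was not tested. In pieces of tissue, fewer cells of a type and less RNA in each cell cannot be told apart, and this holds for each difference given here.

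Levels of a region are given below as the lowest, the median and the highest of its 6 arrays, on the log2 scale of the deposited values. Leading genes were chosen among those whose arrays did not overlap between the regions, so their separation was set by the choice. They include Mndal, St18, Lhx9, Prox1, Zbtb20, Nr3c2, Emx2, Calb2, Nhlh2, Hopx, Gfap, Crym, Nrp2, Pou3f2, Rorb, Foxp2, Ntsr1 and Robo2. The widest difference among the leading genes was that of Mndal, a nuclear protein of an interferon-inducible family, with 6.84, 7.58 and 7.78 in the hippocampus and 2.99, 3.45 and 3.72 in the cortex (log2 difference 4.10 ± 0.12 (SE), adjusted p = 6.63e-09), or 17.1-fold more in the hippocampus. St18, a zinc finger transcription factor, followed with 7.03, 8.03 and 8.44 in the hippocampus and 2.98, 3.90 and 4.26 in the cortex (log2 difference 4.05 ± 0.27 (SE), adjusted p = 5.74e-06). The LIM homeodomain factor Lhx9, known from the early medial pallium and the diencephalon, was read at 5.43, 6.03 and 6.77 in the hippocampus and 2.09, 2.41 and 2.86 in the cortex (log2 difference 3.63 ± 0.21 (SE), adjusted p = 2.41e-06). Every hippocampal value of these 3 genes lay above every cortical value, and in the cortex all 3 stayed below 5.

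**Figure D1:**
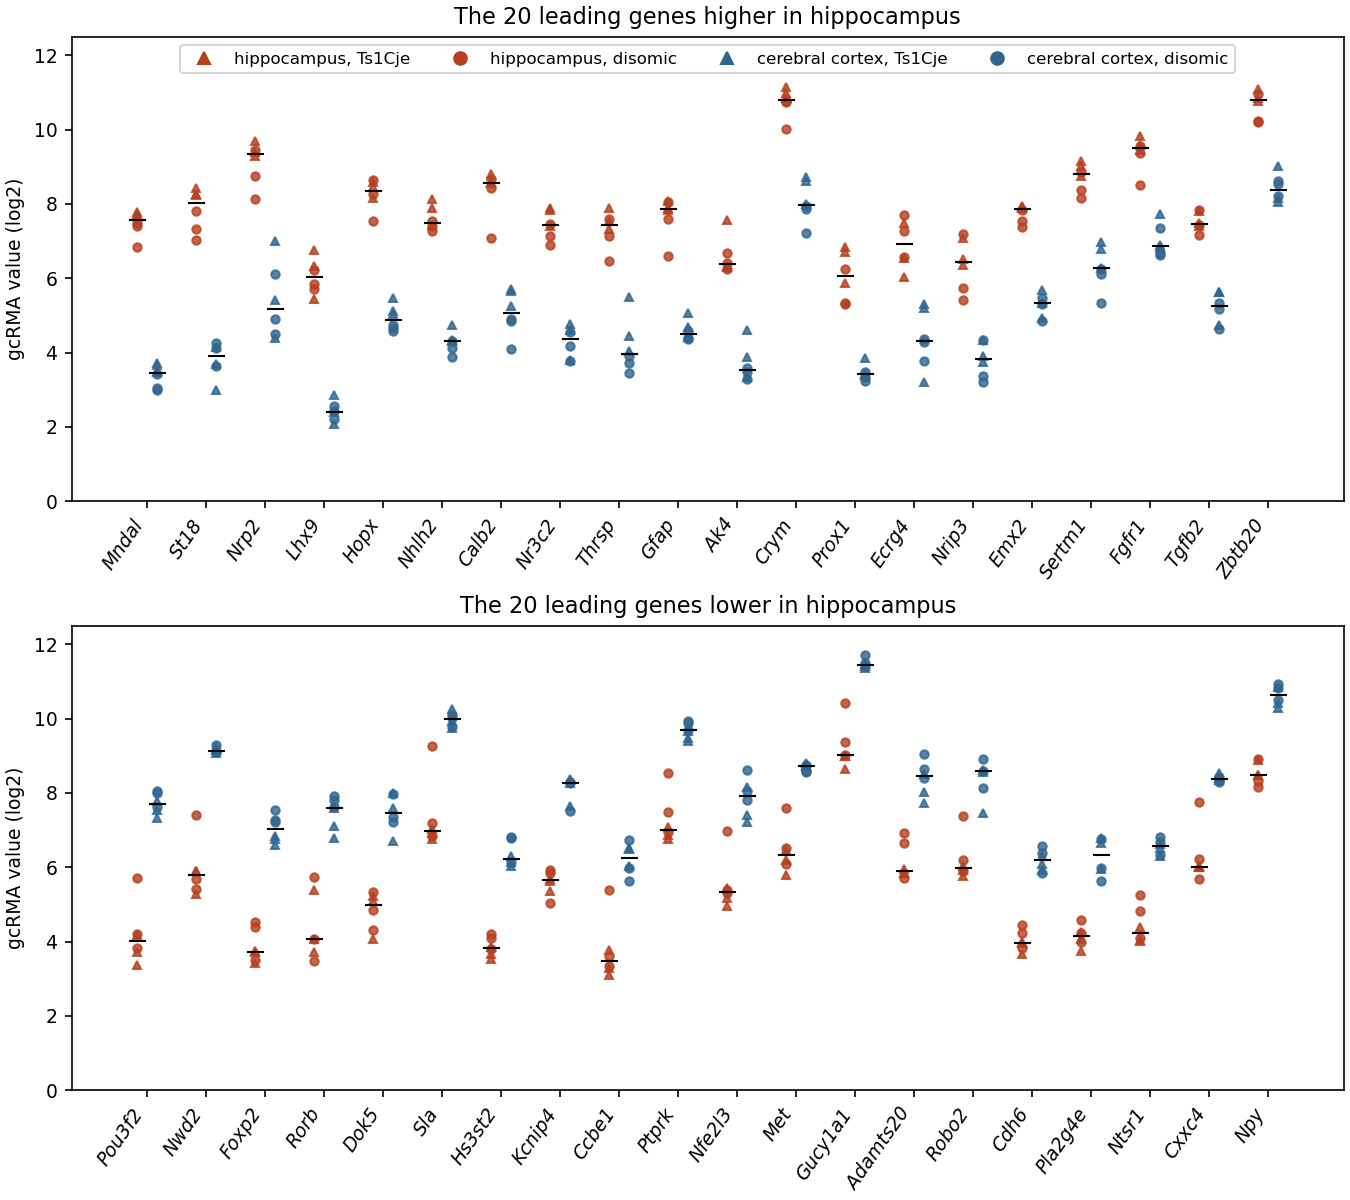
Log2 values of the 20 leading genes higher and the 20 leading genes lower in the hippocampus, with hippocampal arrays left of cortical arrays, triangles for Ts1Cje and circles for disomic mice, and black bars for the median of 6 arrays. The arrays of the 2 regions do not overlap for any of the 40 genes, a condition of the choice, and for Pou3f2, Nwd2, Sla and Robo2 a single disomic hippocampal array (5.71, 7.42, 9.26 and 7.38) lies nearer to the cortex than the rest.

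Genes of the hippocampal fields and of the dentate gyrus went both ways. Of 30 measured genes named for the dentate gyrus and the CA fields, 7 were higher and 4 lower in the hippocampus (36.7% called, against 4.69% over all genes). Their median difference was 0.17, against 0.01 over all genes. Among the 15 of them with a mean of at least 5 the median was -0.24. Prox1, the homeobox factor of dentate granule neurons, was read at 5.31, 6.07 and 6.84 in the hippocampus and 3.23, 3.41 and 3.84 in the cortex (log2 difference 2.60 ± 0.22 (SE), adjusted p = 2.75e-05). Zbtb20, a transcription factor needed for the identity of hippocampal projection neurons, was 4.77-fold higher in the hippocampus, with 10.20, 10.81 and 11.09 in the hippocampus and 8.06, 8.37 and 9.01 in the cortex (log2 difference 2.25 ± 0.19 (SE), adjusted p = 3.34e-05). All 9 of its probe sets were called, with differences of 2.25 to 2.92. The mineralocorticoid receptor gene Nr3c2, which in the adult brain is most abundant in the hippocampus, gave 6.90, 7.43 and 7.88 in the hippocampus and 3.78, 4.36 and 4.77 in the cortex (log2 difference 3.16 ± 0.19 (SE), adjusted p = 2.94e-06). None of these 3 genes overlapped between the regions, a condition of their choice as leading genes.

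Some genes of the mature CA fields were also higher in the hippocampus, and others on the same list were lower. Wfs1, a marker of CA1 pyramidal cells, was read at 3.41, 3.65 and 4.06 in the hippocampus and 2.30, 2.58 and 3.00 in the cortex (log2 difference 1.07 ± 0.16 (SE), adjusted p = 0.00195). Fibcd1, another CA1 gene, had 4.29, 5.25 and 5.41 in the hippocampus and 3.199, 3.55 and 3.97 in the cortex (log2 difference 1.47 ± 0.18 (SE), adjusted p = 0.000461). Npy2r, a receptor for neuropeptide Y, had 3.37, 3.70 and 4.15 in the hippocampus and 2.09, 2.34 and 2.65 in the cortex (log2 difference 1.33 ± 0.12 (SE), adjusted p = 6.47e-05). All 3 were separated between the regions. With the 24 group means, a fit that kept the P15 array that correlated with the cerebellum, none of them was called. Of the 4 genes of the list that were lower in the hippocampus, Necab1, a calcium-binding protein, differed by -1.84 ± 0.19 and Mpped1, a metallophosphoesterase gene, by -1.48 ± 0.17 (adjusted p = 0.000179 and 0.000326). Bok, also among them, differed by -0.63 ± 0.12 (adjusted p = 0.0124), with overlapping arrays.

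Genes of the cortical hem and of medial patterning were mostly not called. Of 34 measured, 5 were higher and none lower (14.7%, against 4.69% over all genes), and 22 lay below 5 in both regions. Emx2, a homeobox gene without which the hippocampus stays small, was the clearest, with 7.38, 7.86 and 7.95 in the hippocampus and 4.86, 5.33 and 5.68 in the cortex (log2 difference 2.48 ± 0.14 (SE), adjusted p = 2.41e-06). Dmrta2, a zinc finger factor that acts in hem formation, had 4.94, 5.62 and 6.16 in the hippocampus and 3.84, 4.32 and 4.66 in the cortex (log2 difference 1.29 ± 0.22 (SE), adjusted p = 0.00646). Both were separated between the regions. The list gave 3 to 6 higher genes when any single array was left out, with the fewest without the hippocampus array of Ts1Cje replicate 2.

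Genes of Cajal-Retzius cells, the early neurons of the marginal zone that secrete reelin, were higher in the hippocampus as a group: 10 of 14 measured genes were called, all higher (71.4% called, against 4.69% over all genes), and the median difference was 0.92. Reln, the reelin gene itself, was 1.91-fold higher in the hippocampus, with 11.22, 11.57 and 11.78 in the hippocampus and 10.37, 10.62 and 10.83 in the cortex (log2 difference 0.94 ± 0.11 (SE), adjusted p = 0.000349). Calb2, the calcium-binding protein calretinin, was read at 7.08, 8.57 and 8.81 in the hippocampus and 4.08, 5.07 and 5.71 in the cortex (log2 difference 3.28 ± 0.25 (SE), adjusted p = 1.63e-05), with a single low hippocampal array, disomic replicate 3. Nhlh2, a basic helix-loop-helix factor, gave 7.27, 7.49 and 8.14 in the hippocampus and 3.88, 4.32 and 4.73 in the cortex (log2 difference 3.33 ± 0.13 (SE), adjusted p = 1.03e-07). For Reln, Calb2 and Nhlh2 every hippocampal array lay above every cortical one. Trp73, whose protein is a defining marker of hem-derived Cajal-Retzius cells, had 3.25, 3.70 and 4.14 in the hippocampus and 2.71, 2.87 and 3.14 in the cortex (log2 difference 0.81 ± 0.14 (SE), adjusted p = 0.00514). The LIM homeodomain gene Lhx1 had 3.04, 3.37 and 3.93 in the hippocampus and 2.21, 2.52 and 2.75 in the cortex (log2 difference 0.91 ± 0.14 (SE), adjusted p = 0.00285). The values of Trp73 and Lhx1 did not overlap either. Values of Ndnf, a secreted protein gene of the marginal zone, touched: 5.91, 6.29 and 7.19 in the hippocampus and 4.64, 4.87 and 5.96 in the cortex (log2 difference 1.35 ± 0.25 (SE), adjusted p = 0.00945). With any single array left out, 9 to 10 members were called. Calb2 and Zic1 are also made by other cells on the lists, interneurons and the septum or meninges.

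The promoter of Nhlh2, the member of the list with the widest difference, is shown because the factors of its own class bind E-boxes, and that of Pou3f2, the leading gene with the widest difference in the other direction, stands beside it. Both are RefSeq windows of the GRCm38.p6 assembly, each of 300 bases around the annotated start, printed 5′ to 3′ on the gene's strand. Capitals mark the motifs searched on both strands: the E-box CAGATG, which reads CATCTG on the other strand, the E-box CAGCTG, the same on both strands, the Tcf/Lef motif CTTTGAT, which reads ATCAAAG on the other strand, and the octamer ATGCAAAT, which reads ATTTGCAT on the other strand. The motifs do not overlap in these windows.
Nhlh2, chr3:102009895-102010194, plus strand: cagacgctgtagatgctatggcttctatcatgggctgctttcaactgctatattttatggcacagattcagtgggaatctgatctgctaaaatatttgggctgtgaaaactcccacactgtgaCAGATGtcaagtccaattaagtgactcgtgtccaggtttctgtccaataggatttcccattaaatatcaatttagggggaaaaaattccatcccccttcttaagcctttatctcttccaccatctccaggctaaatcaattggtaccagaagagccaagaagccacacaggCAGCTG
Pou3f2, chr4:22488317-22488616, minus strand: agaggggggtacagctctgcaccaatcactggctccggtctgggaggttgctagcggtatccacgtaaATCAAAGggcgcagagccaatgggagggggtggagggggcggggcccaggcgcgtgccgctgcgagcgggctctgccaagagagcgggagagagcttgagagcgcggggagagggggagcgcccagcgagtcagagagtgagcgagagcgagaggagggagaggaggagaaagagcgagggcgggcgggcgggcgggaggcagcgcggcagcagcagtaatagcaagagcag
The Nhlh2 window held 1 CAGATG and 1 CAGCTG, and the Pou3f2 window 1 Tcf/Lef motif, while the windows of Emx2 and Neurod1 held none of the 4. CAGATG stood in 11.7% of 539 promoters of genes called higher and 9.37% of 395 promoters of genes called lower, against 17.2% of all 32851 promoters. CAGCTG stood in 16.3% and 15.4%, against 16.3% of all. The Tcf/Lef motif stood in 2.97% and 2.53%, against 3.73% of all, and the octamer in 0.928% and 0.759%, against 1.74% of all. Promoters were found for 402 of 512 higher and 272 of 341 lower genes.

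Genes of newborn neurons and their intermediate progenitors were higher where they were called. Of 26 measured, 7 were higher and none lower in the hippocampus (26.9%, against 4.69% of all genes), with a list median of 0.16, and of 0.00 among the members with a mean of at least 5. Neurod1, a helix-loop-helix factor of differentiating granule neurons, was read at 9.16, 9.79 and 10.10 in the hippocampus and 7.24, 7.83 and 7.99 in the cortex (log2 difference 2.04 ± 0.18 (SE), adjusted p = 3.86e-05). Neurog2, which acts earlier in the same lineage, gave 4.05, 5.14 and 5.81 in the hippocampus and 3.19, 3.34 and 4.03 in the cortex (log2 difference 1.54 ± 0.31 (SE), adjusted p = 0.0154). Both helix-loop-helix genes were separated between the regions, Neurog2 by a narrow margin. Draxin, a secreted guidance protein, had 7.38, 8.03 and 8.55 in the hippocampus and 6.45, 6.94 and 7.41 in the cortex (log2 difference 1.11 ± 0.16 (SE), adjusted p = 0.00175), and its lowest hippocampal array lay just below its highest cortical one. Eomes, the factor that defines intermediate progenitors, had 5.22, 6.34 and 7.28 in the hippocampus and 4.10, 5.08 and 5.32 in the cortex and was not called (log2 difference 1.34 ± 0.35 (SE), adjusted p = 0.065). It was called without the hippocampus array of Ts1Cje replicate 3 (difference 1.56, adjusted p = 0.0281). None of 41 cell cycle and DNA replication genes was called (0%), with differences of -0.27 to 0.80, of which 31 were above 0.

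Radial glia and astrocytes make overlapping sets of genes at this age, and both lists leaned to the hippocampus. Of 24 radial glia genes 7 were higher and none lower (29.2%, median 0.61), and of 19 astrocyte genes 7 were higher and none lower (36.8%, median 0.60), against 4.69% called over all genes. Hopx, a homeodomain-only protein of neural stem cells, was read at 7.55, 8.36 and 8.66 in the hippocampus and 4.58, 4.89 and 5.46 in the cortex (log2 difference 3.34 ± 0.17 (SE), adjusted p = 8.4e-07). Vim, the intermediate filament of radial glia, had 11.35, 11.56 and 11.69 in the hippocampus and 10.42, 10.53 and 11.12 in the cortex (log2 difference 0.91 ± 0.12 (SE), adjusted p = 0.00122), and Notch1 differed by 0.90 ± 0.16 (adjusted p = 0.00875). These 3 did not overlap.
Gfap, the intermediate filament of astrocytes and of the radial scaffold of the dentate gyrus, was 8.5-fold higher in the hippocampus, with 6.59, 7.86 and 8.09 in the hippocampus and 4.36, 4.50 and 5.07 in the cortex (log2 difference 3.09 ± 0.21 (SE), adjusted p = 5.74e-06). The glutamate transporter gene Slc1a2 had 9.15, 10.02 and 10.49 in the hippocampus and 7.92, 8.38 and 8.81 in the cortex (log2 difference 1.54 ± 0.21 (SE), adjusted p = 0.00106). For Clu, the secreted chaperone clusterin, the values were 10.39, 10.76 and 10.96 in the hippocampus and 9.68, 9.91 and 10.17 in the cortex (log2 difference 0.78 ± 0.13 (SE), adjusted p = 0.0045). Gfap, Slc1a2 and Clu did not overlap, although the lowest hippocampal Gfap value, on disomic replicate 3, was well below the rest. Aqp4, the water channel of astrocyte endfeet, overlapped at the edge, with 6.12, 7.57 and 7.81 in the hippocampus and 4.30, 5.50 and 6.41 in the cortex (log2 difference 1.70 ± 0.30 (SE), adjusted p = 0.00749). Slc4a4, a sodium bicarbonate cotransporter, was separated by a narrow margin, with 6.86, 7.43 and 8.20 in the hippocampus and 4.81, 6.11 and 6.75 in the cortex (log2 difference 1.64 ± 0.32 (SE), adjusted p = 0.0138). Slc1a3, the other main glial glutamate transporter, was not called with 12 arrays (log2 difference 1.06 ± 0.27 (SE), adjusted p = 0.0617). Leaving out the hippocampus array of disomic replicate 3 gave 1.30 (adjusted p = 0.0028) for Slc1a3, 11 radial glia genes and 9 astrocyte genes.

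The neocortical layer genes made up the clearest group on the other side. Of 20 upper layer genes, 9 were lower and none higher in the hippocampus (45%, against 4.69% over all genes), and the median difference was -0.52. Pou3f2, a POU factor of upper layer neurons and their progenitors, had 3.38, 4.004 and 5.71 in the hippocampus and 7.34, 7.70 and 8.04 in the cortex (log2 difference -3.55 ± 0.28 (SE), adjusted p = 1.76e-05), or 11.7-fold less in the hippocampus. The layer IV receptor gene Rorb had 3.48, 4.07 and 5.74 in the hippocampus and 6.78, 7.60 and 7.92 in the cortex (log2 difference -3.06 ± 0.37 (SE), adjusted p = 0.0005). In both genes the regions were separated, and the highest hippocampal array was disomic replicate 3 for both. Mef2c, a factor of neuronal differentiation, had 10.53, 10.77 and 11.74 in the hippocampus and 12.29, 12.53 and 12.72 in the cortex (log2 difference -1.55 ± 0.17 (SE), adjusted p = 0.000301). Cux1 and Cux2, homeobox genes of layers II to IV, differed by -1.12 ± 0.11 and -1.48 ± 0.28 (adjusted p = 0.000134 and 0.0103), the first separated between the regions and the second not. Inhba, an activin subunit gene, had 2.64, 2.83 and 3.26 in the hippocampus and 4.20, 4.62 and 4.70 in the cortex (log2 difference -1.61 ± 0.13 (SE), adjusted p = 2.47e-05), with no overlap for either Mef2c or Inhba. Without the hippocampus array of disomic replicate 3, 11 members were called.

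Deep layer genes split. Of 24 measured, 7 were lower and 5 higher in the hippocampus (50% called, against 4.69% over all genes), with a median of -0.17. Foxp2, a forkhead factor of layer VI, had 3.42, 3.73 and 4.51 in the hippocampus and 6.59, 7.04 and 7.55 in the cortex (log2 difference -3.16 ± 0.16 (SE), adjusted p = 8.4e-07), and its 6 probe sets were all called lower. The neurotensin receptor gene Ntsr1, a marker of corticothalamic cells, had 4.003, 4.24 and 5.25 in the hippocampus and 6.30, 6.56 and 6.83 in the cortex (log2 difference -2.12 ± 0.18 (SE), adjusted p = 3.76e-05). Foxp2 and Ntsr1 were low on all hippocampal arrays and did not overlap. Sox5, which acts in the specification of deep layer neurons, differed by -1.26 ± 0.14 (adjusted p = 0.000228). On the other side stood Crym, a thyroid hormone-binding protein of layer V and of hippocampal pyramidal cells, at 10.03, 10.81 and 11.16 in the hippocampus and 7.23, 7.96 and 8.73 in the cortex (log2 difference 2.69 ± 0.18 (SE), adjusted p = 5.74e-06), and the transcriptional cofactor gene Zfpm2, at 8.31, 8.50 and 8.83 in the hippocampus and 7.23, 7.81 and 8.08 in the cortex (log2 difference 0.81 ± 0.13 (SE), adjusted p = 0.00469), neither with an overlap. Single arrays moved the higher members between 3 and 6, with 3 when the cortex array of disomic replicate 2 was left out.
Of 16 subplate genes 4 were higher and 3 lower (43.8% called, against 4.69% over all genes, median 0.04). The orphan nuclear receptor gene Nr4a2 had 10.92, 11.56 and 11.88 in the hippocampus and 9.80, 10.51 and 10.90 in the cortex (log2 difference 1.09 ± 0.20 (SE), adjusted p = 0.00865), and Pcsk5, a proprotein convertase, had 6.40, 7.06 and 7.50 in the hippocampus and 5.01, 5.41 and 5.64 in the cortex (log2 difference 1.63 ± 0.15 (SE), adjusted p = 6.65e-05), both separated between the regions. Cplx3, a complexin that marks subplate cells, was below 3 on each of the 12 arrays, with 1.73, 1.97 and 2.09 in the hippocampus and 2.23, 2.61 and 2.82 in the cortex (log2 difference -0.61 ± 0.12 (SE), adjusted p = 0.013).

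**Figure D2:**
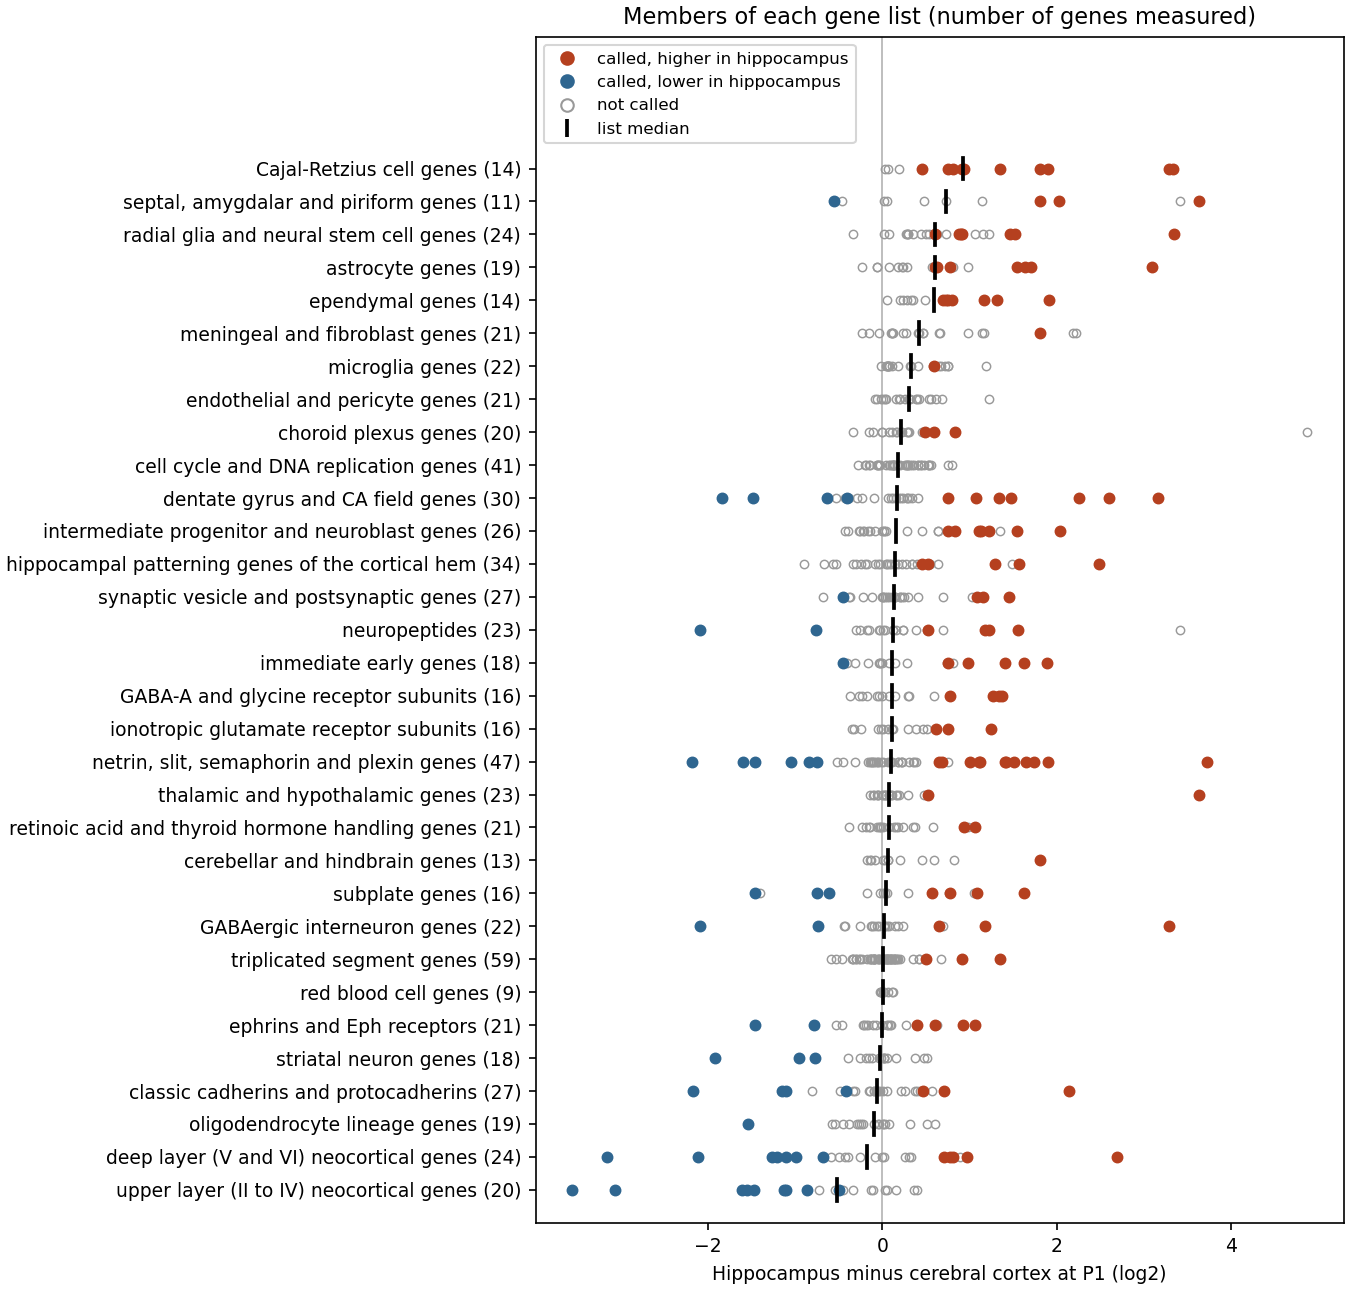
Log2 difference, hippocampus minus cerebral cortex, of each measured member of the gene lists, with red and blue points for genes called higher and lower in the hippocampus, open points for genes not called and black bars for list medians. Lists are ordered by median, with the Cajal-Retzius list at the top (0.92) and the upper layer list at the bottom (-0.52).

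Other leading genes belonged to none of these groups. Thrsp, a regulator of lipid synthesis, had 6.48, 7.43 and 7.88 in the hippocampus and 3.44, 3.97 and 5.50 in the cortex (log2 difference 3.15 ± 0.25 (SE), adjusted p = 2.04e-05). Only 2 of its 3 probe sets were called, and the lowest difference among them was -0.008. Ak4, a mitochondrial adenylate kinase, had 6.25, 6.37 and 7.57 in the hippocampus and 3.29, 3.53 and 4.62 in the cortex (log2 difference 2.90 ± 0.24 (SE), adjusted p = 2.97e-05), although only 2 of its 5 probe sets were called. The growth factor receptor gene Fgfr1 was 5.14-fold and the ligand gene Tgfb2 5.03-fold higher in the hippocampus, each with all of its probe sets called. Among the genes lower in the hippocampus, Nwd2 had 5.27, 5.78 and 7.42 in the hippocampus and 9.06, 9.14 and 9.28 in the cortex (log2 difference -3.23 ± 0.28 (SE), adjusted p = 4.16e-05). Sla, a Src-like adaptor, had 6.75, 6.98 and 9.26 in the hippocampus and 9.74, 9.98 and 10.26 in the cortex (log2 difference -2.64 ± 0.34 (SE), adjusted p = 0.000846). Met, the hepatocyte growth factor receptor, had 5.78, 6.33 and 7.59 in the hippocampus and 8.57, 8.73 and 8.81 in the cortex (log2 difference -2.25 ± 0.23 (SE), adjusted p = 0.00014). Of its 2 probe sets 1 was called, and the other differed by -1.31. For Nwd2, Sla and Met the highest hippocampal value was that of disomic replicate 3. The docking protein gene Dok5, the heparan sulphate sulphotransferase gene Hs3st2, the potassium channel-interacting gene Kcnip4 and the receptor phosphatase gene Ptprk differed by -2.67, -2.51, -2.48 and -2.40 (adjusted p = 0.00013, 8.4e-07, 1.91e-05 and 5.08e-05). Of the 7 Ptprk probe sets 6 were called, and their differences ran from -3.25 to 0.12 over all 7.

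Axon guidance genes were called often and in both directions. Of 47 netrin, slit, semaphorin and plexin genes with their receptors, 12 were higher and 6 lower in the hippocampus (38.3%, against 4.69% over all genes). Their median was 0.10. Among ligands, Sema3c had 8.96, 9.80 and 10.60 in the hippocampus and 7.57, 7.86 and 8.20 in the cortex (log2 difference 1.90 ± 0.28 (SE), adjusted p = 0.00223) and Slit2 7.97, 8.41 and 8.85 in the hippocampus and 6.63, 6.98 and 7.42 in the cortex (log2 difference 1.41 ± 0.17 (SE), adjusted p = 0.00053). All hippocampal arrays exceeded all cortical arrays for both. Sema3e differed by 1.51 ± 0.19 and Slit3 by 1.10 ± 0.16 (adjusted p = 0.000757 and 0.00177). Sema3a, a repellent for many axons, was lower instead, with 4.41, 5.04 and 5.49 in the hippocampus and 6.06, 6.73 and 6.82 in the cortex (log2 difference -1.59 ± 0.17 (SE), adjusted p = 0.000186).
Both neuropilin genes, receptors for the secreted semaphorins, were higher. Nrp2 had 8.13, 9.34 and 9.68 in the hippocampus and 4.39, 5.16 and 6.997 in the cortex (log2 difference 3.73 ± 0.41 (SE), adjusted p = 0.000229), and Nrp1 10.93, 11.23 and 11.36 in the hippocampus and 8.96, 9.45 and 9.89 in the cortex (log2 difference 1.73 ± 0.10 (SE), adjusted p = 2.63e-06), and neither overlapped. The netrin receptor genes went apart, with Dcc at 8.89, 9.31 and 9.51 in the hippocampus and 7.29, 7.69 and 7.81 in the cortex (log2 difference 1.65 ± 0.10 (SE), adjusted p = 3.46e-06) and Unc5c at 3.88, 4.07 and 4.19 in the hippocampus and 5.18, 5.51 and 5.82 in the cortex (log2 difference -1.46 ± 0.12 (SE), adjusted p = 2.64e-05). These, too, were separated in opposite directions. Robo2, a slit receptor, was lower at 5.76, 5.98 and 7.38 in the hippocampus and 7.46, 8.58 and 8.92 in the cortex (log2 difference -2.19 ± 0.27 (SE), adjusted p = 0.000543), and so was the semaphorin co-receptor gene Plxna4 (-0.74 ± 0.13, adjusted p = 0.00707).
Of 21 ephrin and Eph receptor genes 4 were higher and 2 lower (28.6%, against 4.69% over all genes). Among them were the receptor gene Epha4 (0.92 ± 0.13, adjusted p = 0.00168) and the ligand gene Efna5 (-1.46 ± 0.13, adjusted p = 5.06e-05). With any single array left out, 2 to 3 genes of this list were called higher and 1 to 3 lower. Of 27 cadherin and protocadherin genes 3 were higher and 4 lower (25.9%, against 4.69% over all genes). Pcdh20 differed by 2.14 ± 0.26 and Cdh6 by -2.17 ± 0.14 (adjusted p = 0.000523 and 5.57e-06). Without the hippocampus array of Ts1Cje replicate 1 only 2 genes of the list were called lower.

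The subunits of ionotropic GABA and glutamate receptors that were called from the 12 arrays were higher in the hippocampus. Of 16 GABA-A and glycine receptor subunits 4 were higher (25%, against 4.69% over all genes). They stayed called with each single array left out, but with the 24 group means only Gabra2 did (adjusted p = 0.00664, against 0.016 for Gabra4, 0.865 for Gabra5 and 0.0278 for Gabrb1). Without the hippocampus array of disomic replicate 3, 1 subunit of this list was called lower. Gabra2 had 7.08, 7.25 and 7.62 in the hippocampus and 5.19, 6.09 and 6.62 in the cortex (log2 difference 1.37 ± 0.19 (SE), adjusted p = 0.00117), Gabra4 6.36, 7.09 and 7.28 in the hippocampus and 5.27, 5.78 and 6.07 in the cortex (log2 difference 1.27 ± 0.17 (SE), adjusted p = 0.0012) and Gabrb1 7.15, 7.57 and 8.20 in the hippocampus and 5.79, 6.38 and 6.66 in the cortex (log2 difference 1.33 ± 0.20 (SE), adjusted p = 0.00192). None of the 3 overlapped. Gabra5, an alpha subunit that is abundant in the adult hippocampus, differed by 0.78 ± 0.13 (adjusted p = 0.00542). Of 16 ionotropic glutamate receptor subunits 3 were higher (18.8%, against 4.69% over all genes). Among them were the AMPA receptor gene Gria1 (9.11, 10.11 and 10.58 in the hippocampus and 7.98, 8.91 and 9.16 in the cortex, log2 difference 1.25 ± 0.25 (SE), adjusted p = 0.0161) and the kainate receptor gene Grik4 (0.76 ± 0.11, adjusted p = 0.00168, and 0.0592 with the 24 group means). Of 22 interneuron genes 3 were higher and 2 lower (22.7%, against 4.69% over all genes). Npy, neuropeptide Y, was 4.25-fold lower in the hippocampus, with 8.16, 8.48 and 8.93 in the hippocampus and 10.28, 10.65 and 10.93 in the cortex (log2 difference -2.09 ± 0.16 (SE), adjusted p = 1.75e-05).
Nts, the neurotensin gene, was not called, although its arrays did not overlap (10.12, 10.61 and 10.82 in the hippocampus and 2.04, 8.01 and 9.22 in the cortex, log2 difference 3.41 ± 0.85 (SE), adjusted p = 0.0522). Its lowest cortical value, that of disomic replicate 3, stood far from the other cortical arrays at 6.39 to 9.22, and without that array the difference was 2.50 (adjusted p = 0.00381).

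Activity-regulated genes that were called were mostly higher in the hippocampus. Of 18 immediate early genes 5 were higher and 1 lower (33.3%, against 4.69% over all genes). Bdnf, the neurotrophin gene, had 4.13, 4.46 and 5.12 in the hippocampus and 2.33, 2.50 and 3.36 in the cortex (log2 difference 1.89 ± 0.19 (SE), adjusted p = 0.000106). Fosl2 had 9.37, 9.44 and 9.94 in the hippocampus and 7.36, 7.91 and 8.25 in the cortex (log2 difference 1.63 ± 0.11 (SE), adjusted p = 7.35e-06) and the nuclear receptor gene Nr4a3 10.05, 10.33 and 10.43 in the hippocampus and 8.34, 8.92 and 9.35 in the cortex (log2 difference 1.41 ± 0.12 (SE), adjusted p = 2.69e-05). Bdnf, Fosl2 and Nr4a3 were each higher on all hippocampal arrays than on any cortical array. Fos had 3.79, 4.22 and 4.52 in the hippocampus and 3.18, 3.39 and 3.55 in the cortex (log2 difference 0.76 ± 0.13 (SE), adjusted p = 0.0058). The scaffold gene Homer1 was the lower member (-0.45 ± 0.09, adjusted p = 0.0145).

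Genes of tissue that borders the hippocampus or cortex varied between arrays of the same region. Ttr, transthyretin, the most abundant secreted protein of the choroid plexus, was 11.91 on the hippocampus array of Ts1Cje replicate 2, 11.81 on that of disomic replicate 2 and 12.02 on that of disomic replicate 3, and 3.58 to 8.43 on the other three. In the cortex it was 8.71 on the array of Ts1Cje replicate 2 and 2.77 to 4.21 on the rest, and it was not called (log2 difference 4.87 ± 1.55 (SE), adjusted p = 0.146). Of 20 choroid plexus genes 3 were higher (15%, against 4.69% called over all genes), and the list mean was 3.16 to 3.79 in the hippocampus and 2.98 to 3.43 in the cortex. Of 14 ependymal genes 7 were higher (50%, against the same 4.69%), with a list mean of 3.35 to 4.23 in the hippocampus and 2.78 to 3.47 in the cortex, and 12 of the 14 lay below 5 in both regions. Dynlrb2, a dynein light chain gene of ciliated cells, was among the called ones, with 5.09, 5.88 and 6.74 in the hippocampus and 3.50, 3.87 and 5.05 in the cortex (log2 difference 1.91 ± 0.30 (SE), adjusted p = 0.00298).
The meningeal genes divided the cortical arrays. Col3a1, a collagen of fibroblasts, was 7.46 to 9.11 on the 6 hippocampal arrays, and in the cortex it was 3.12 and 3.05 on Ts1Cje replicates 1 and 3 and 4.72 on disomic replicate 3 but 7.87 to 9.04 on the other three. Ptgds, prostaglandin D synthase, followed the same arrays, with 9.92 to 11.70 in the hippocampus, 3.34 to 7.53 on those 3 cortical arrays and 11.07 to 11.29 on the other three. Of 21 meningeal genes only Zic1 was called (4.76%, against 4.69% over all genes). Zic1 had 9.38, 9.66 and 10.46 in the hippocampus and 6.82, 8.20 and 9.03 in the cortex (log2 difference 1.81 ± 0.38 (SE), adjusted p = 0.0203). The list mean was 4.77 to 5.97 in the hippocampus and 3.18 to 5.77 in the cortex. Of 22 microglia genes 1 was called (4.55%, against 4.69% over all genes), and of 21 endothelial and 9 red blood cell genes none (0%). Of the microglia and endothelial differences, 21 of the 22 and 18 of the 21 were above 0.

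**Figure D3:**
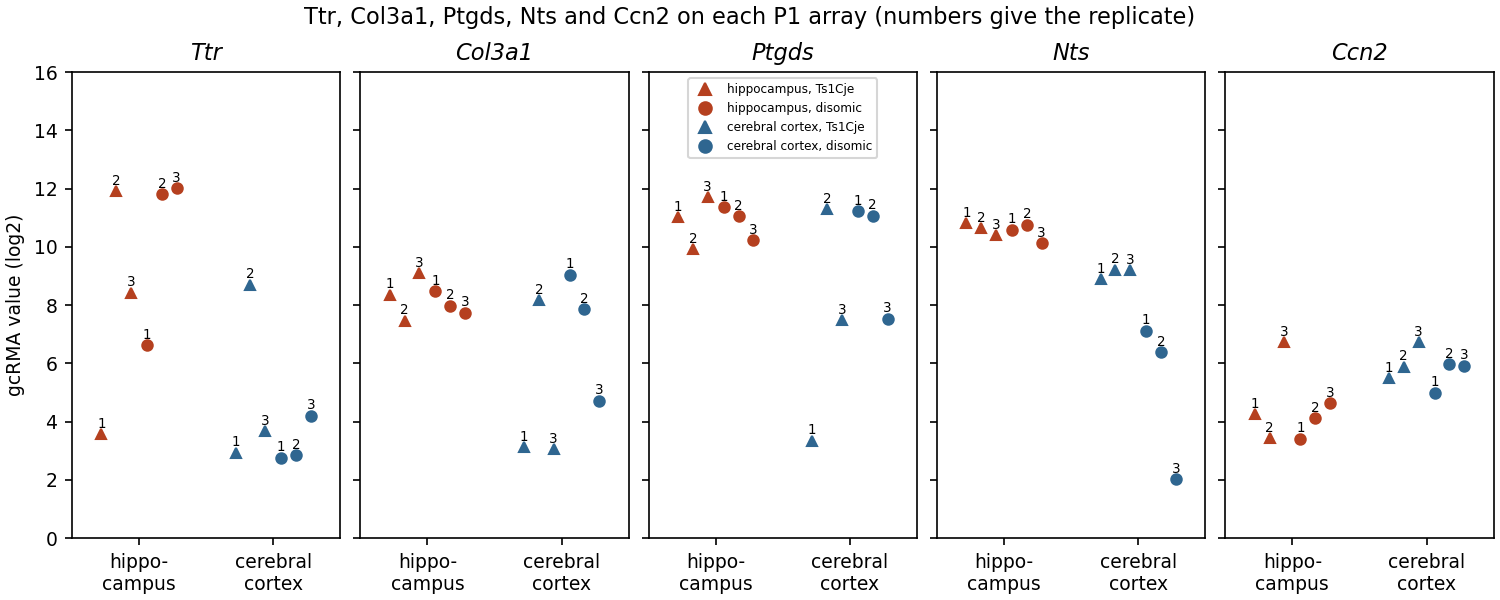
Log2 values of Ttr, Col3a1, Ptgds, Nts and Ccn2 on each of the 12 arrays, with the replicate number above each point, triangles for Ts1Cje and circles for disomic mice. Col3a1 and Ptgds were low on 3 cortical arrays, Ttr was above 11 on 3 hippocampal arrays, Nts was 2.04 on 1 cortical array, and Ccn2, a subplate gene, was 6.73 on the hippocampus array of Ts1Cje replicate 3.

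Without the 3 cortical arrays on which Col3a1 lay below 5, 691 of 45101 probe sets were called from 9 arrays, 333 higher and 358 lower. All 12 arrays had given 1461. The called higher genes were 6 of 14 on the Cajal-Retzius list, 4 of 19 on the astrocyte list and 3 of 14 on the ependymal list. On the newborn neuron list they were 2 of 26, while 7 of 20 upper layer genes were called lower. With all 12 arrays these counts were 10, 7, 7, 7 and 9. Without the 3 hippocampal arrays on which Ttr lay above 11, 865 were called, 460 higher and 405 lower, with 6, 4, 3 and 5 higher genes on the same lists and 8 upper layer genes lower. No share over all genes was taken for these fits, so the list counts cannot be told apart from the fall over all probe sets. Of the 90 called genes described here, 71 stayed called without those cortical arrays and 79 without those hippocampal arrays. Neurog2, Aqp4, Slc4a4, Cbr3, Cplx3, Ppp1r1b and Zic1 were not called in either. Without those cortical arrays alone, Bok, Cux2, Draxin, Fos, Gria1, Homer1, Hunk, Notch1, Plxna4, Slit3, Trp73 and Wfs1 were not called, and without those hippocampal arrays alone Clu, Gabra5, Ndnf and Zfpm2. Dusp14 and Rasgef1b, followed below over the ages and not counted among the 90, were also not called without those cortical arrays. The part of meninges and choroid plexus in any of the differences was not tested. These fits also held fewer arrays, and no other sets of 3 arrays were left out. Both choices of arrays were made after the values had been seen.
Of 18 striatal genes 3 were called, all lower in the hippocampus (16.7%, against 4.69% over all genes). The dopamine receptor gene Drd1 had 3.25, 3.43 and 3.82 in the hippocampus and 4.98, 5.31 and 6.14 in the cortex (log2 difference -1.92 ± 0.17 (SE), adjusted p = 3.86e-05), and Ppp1r1b, the phosphoprotein of medium spiny neurons, 2.92, 3.10 and 3.29 in the hippocampus and 3.44, 4.05 and 4.42 in the cortex (log2 difference -0.95 ± 0.15 (SE), adjusted p = 0.00419). The striatal list mean was 4.10 to 4.25 in the hippocampus and 4.11 to 4.63 in the cortex. Of 11 septal, amygdalar and piriform genes 3 were higher, 1 lower and 7 not called (36.4% called, against 4.69% over all genes). Zic5, a gene of the septum and the medial wall, was on the hippocampal side, with 5.36, 6.37 and 6.85 in the hippocampus and 3.72, 4.26 and 4.77 in the cortex (log2 difference 2.03 ± 0.25 (SE), adjusted p = 0.000523). The lower member was Tfap2d (-0.55, adjusted p = 0.0264). The part of neighbouring striatum or septum in these values was not tested.

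The region difference was alike in sign in both genotypes for all 96 genes checked, which leave out Dusp14, Rasgef1b, Ccbe1, Myo5b and Htr2c. Of these, 90 were called on the arrays of both genotypes together. Where the arrays of the regions do not overlap, the sign must be alike, so the agreement was largely set by the choice of genes. No probe set of 45101 was called for a change of the region difference with genotype in limma (0%), and 916 (2.03%) had an unadjusted p under 0.05. Among the genes described, the smallest unadjusted p was that of Neurod1, with a region difference of 2.51 in Ts1Cje and 1.56 in disomic mice (unadjusted p = 0.0021, adjusted p = 1). St18 followed with 4.72 in Ts1Cje and 3.39 in disomic mice (unadjusted p = 0.00678, adjusted p = 1). With 3 arrays per group, changes of this size did not pass the adjustment over all probe sets.
Of 59 measured genes of the triplicated segment, 56 were higher in Ts1Cje than in disomic mice over both regions (median 0.54, against 0.00 over all genes), and 5 of them were called, among 7 of 18194 genes called higher in Ts1Cje (0.0385%) and 12 of all probe sets called in either direction (0.0266%). Their region differences had a median of 0.01, and 3 were higher in the hippocampus (5.08%, against 4.69% over all genes). Hunk, a kinase gene, had 6.12, 7.94 and 8.39 in the hippocampus and 5.81, 6.11 and 6.82 in the cortex (log2 difference 1.34 ± 0.24 (SE), adjusted p = 0.00843) and the carbonyl reductase gene Cbr3 3.60, 4.11 and 4.89 in the hippocampus and 2.26, 3.34 and 4.21 in the cortex (log2 difference 0.91 ± 0.16 (SE), adjusted p = 0.00655), both with overlapping arrays, and with any single array left out 2 to 4 of the list were called higher.

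Many of the differences of P1 were not those of later ages. In a fit of 48 hippocampal and cortical arrays, the P1 difference departed from the mean difference of P15, P30 and P84 on 1548 probe sets (3.43%). A P15 array labelled disomic hippocampus replicate 3 correlated at 0.971 with the cerebellar mean and at 0.0992 with the hippocampal mean of that age over the 2000 most variable probe sets. Without it 2044 probe sets (4.53%) were called, and 2191 without it and the P84 arrays of disomic replicate 3 from both regions, whose upper quartiles were 5.51 in the hippocampus and 5.23 in the cortex, against 5.71 to 5.88 on the other P84 arrays. Values and tests of the ages are given below without the P15 array. Of the 1461 probe sets called at P1 from its own 12 arrays, 483 were called in the same direction at P15, 498 at P30 and 493 at P84 (33.1%, 34.1% and 33.7%), where 1978 (4.39%), 2600 (5.76%) and 2727 (6.05%) were called, and P1 itself gave 1547 (3.43%) in that fit. At all 4 ages in the same direction there were 369. At P1 and at no later age 750 were called, and the difference of P1 departed from the later mean in the test on 600 of the 1461. The comparisons of the ages rest on separate mice but share the fit.

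By list, the P1 difference was the higher one for 8 of 14 Cajal-Retzius genes (57.1%), 7 of 19 astrocyte genes (36.8%) and 4 of 24 radial glia genes (16.7%), against 3.9% of all genes, and the lower one for 0, 1 and 0 of them. For the dentate gyrus and CA field genes it was the lower one for 15 of 30 (50%), against 2.79% of all genes, and the higher one for 1.

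All of 26 genes followed over the ages were called for a departure of P1, 25 of them also with all 48 arrays. Region differences follow in the order P1, P15, P30 and P84. Those of Nhlh2 were 3.33, 1.32, 0.55 and 0.63 (P1 minus later 2.49, adjusted p = 3.7e-14). Those of Reln were 0.94, -0.21, -0.54 and -0.78 (adjusted p = 1.53e-07), above 0 at P1 and below 0 later, where only P84 was called, and with all arrays the P15 difference was 0.14. Emx2 gave 2.48, 1.73, 0.83 and 1.03 (adjusted p = 0.00175) and was the gene not called with all arrays (adjusted p = 0.025). Of the glial genes followed, Hopx gave 3.34, 1.45, 1.39 and 1.21, Gfap 3.09, 1.76, 1.82 and 1.79 and Slc1a2 1.54, 0.00, -0.08 and -0.11 (adjusted p = 5.28e-10, 0.000375 and 2.54e-09). Neurog2 gave 1.54, 0.64, 0.26 and 0.01 (adjusted p = 0.000199). On the cortical side Pou3f2 gave -3.55, -1.35, -1.41 and -1.59, Ntsr1 -2.12, -0.29, -0.45 and -0.51 and Inhba -1.61, -0.20, -0.03 and -0.20 (adjusted p = 1.89e-07, 1.74e-09 and 9.02e-09).

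**Figure D4:**
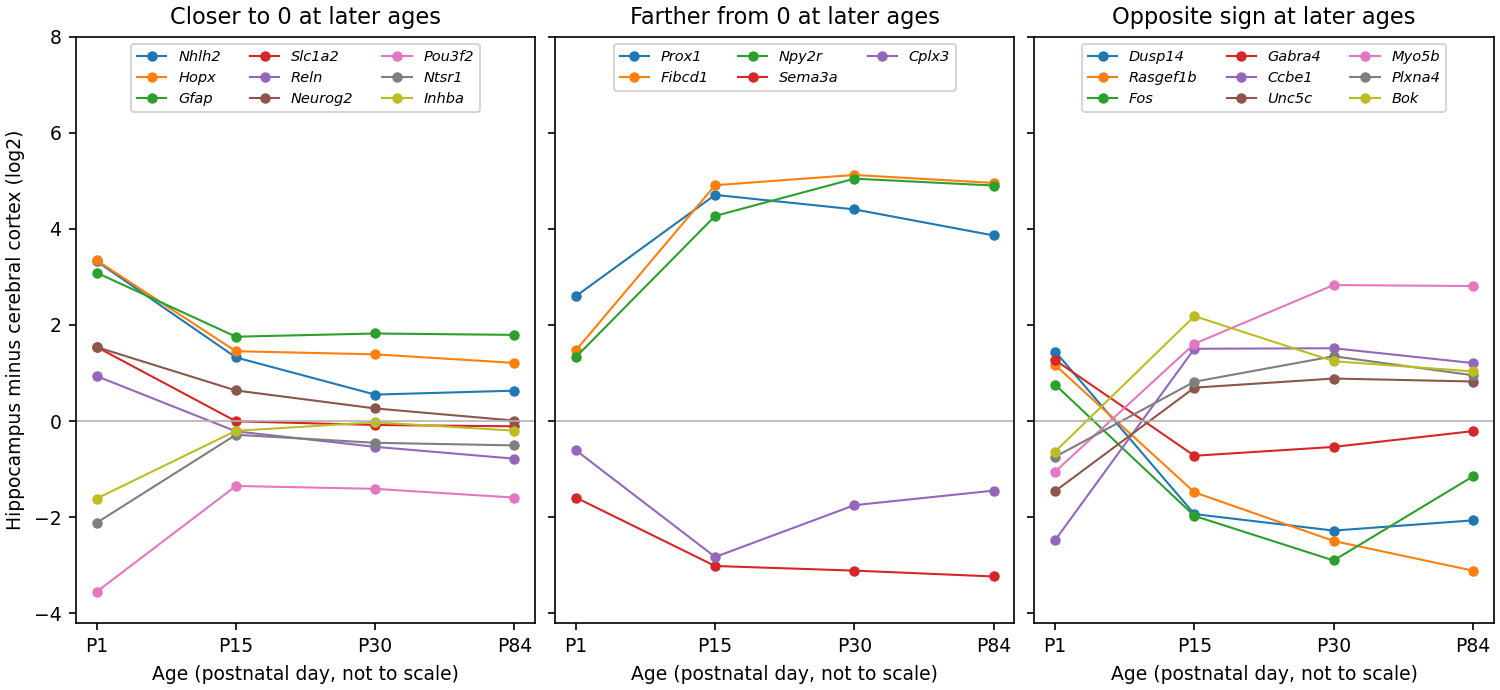
Hippocampus minus cortex difference (log2, mean of both genotypes) at P1, P15, P30 and P84, with P15 drawn without the array that correlated with cerebellum. The left panel holds genes closer to 0 later, such as Nhlh2 (3.33 at P1, 0.63 at P84), the middle panel genes farther from 0 later, such as Fibcd1 (1.47 at P1, 4.96 at P84), and the right panel genes of the opposite sign later, such as Dusp14 (1.45 at P1, -2.07 at P84).

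Genes of mature hippocampal fields had wider differences later. Prox1 gave 2.60, 4.71, 4.41 and 3.86, Fibcd1 1.47, 4.91, 5.12 and 4.96 and Npy2r 1.33, 4.27, 5.05 and 4.90 (adjusted p = 2.47e-06, 1.74e-16 and 4.41e-20). On the cortical side Sema3a gave -1.59, -3.02, -3.11 and -3.23 and Cplx3 -0.61, -2.83, -1.75 and -1.45 (adjusted p = 8.09e-08 and 6.86e-06).
A further set stood on the other side of 0 at later ages, called there at P15, P30 and P84 except where stated. The phosphatase gene Dusp14 gave 1.45, -1.94, -2.28 and -2.07 (adjusted p = 5.23e-11), and the guanine nucleotide exchange factor gene Rasgef1b 1.17, -1.48, -2.50 and -3.11 (adjusted p = 1.09e-15). Fos gave 0.76, -1.97, -2.90 and -1.15 and Gabra4 1.27, -0.72, -0.54 and -0.21 (adjusted p = 2.58e-06 and 2.2e-10), Fos called at P15 and P30 and Gabra4 at P15. In the opposite sense, Ccbe1, a secreted protein gene, gave -2.48, 1.51, 1.52 and 1.21 and the myosin gene Myo5b -1.05, 1.61, 2.83 and 2.81 (adjusted p = 1.07e-11 and 6.07e-20). The guidance receptor genes Unc5c and Plxna4 gave -1.46, 0.70, 0.89 and 0.82 and -0.74, 0.82, 1.35 and 0.95 (adjusted p = 1.01e-11 and 2.05e-09), and Bok, a Bcl2 family gene, gave -0.63, 2.18, 1.25 and 1.03 (adjusted p = 1.45e-11). Nr4a2 gave 1.09, -0.11, -0.26 and -0.07 (adjusted p = 9.53e-06) and was called at no later age. Htr2c, a serotonin receptor made by choroid plexus and by neurons, stayed above 0 and was called at no later age either, with 3.29, 0.84, 0.98 and 0.88 (adjusted p = 9.3e-07).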

How the data were processed

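Labelled target was prepared from total RNA of each region and hybridised to Affymetrix mouse expression arrays. The authors background-corrected, normalised and summarised the scans with GCRMA, and the deposited values, 1 per probe set and array, are gcRMA values on the log2 scale. They carry no detection call, so that low values cannot be told from background. Of 45101 probe sets 34958 have 1 gene symbol. With limma 3.58.1 in R 4.3.3, region and genotype were fitted to the 12 P1 arrays (additive model), and a probe set counted as called where its moderated t reached 4 in size and its p, adjusted by Benjamini-Hochberg across the whole array, was no higher than 0.05, the criteria of the study. The change of the region difference with genotype was fitted to 4 group means and that with age to 16 group means over 48 arrays. No filter or pseudocount was used. Each gene was represented by its probe set with the highest mean. The genes described were the 20 leading non-overlapping genes in each direction with a mean of at least 6 in the brighter region, called members of the gene lists, defining markers, and genes that changed most with age. The gene lists and the genes shown were chosen with earlier results of these data known. Each age had 6 mice, from which every region was taken. Nothing in the labels says that a replicate number marks the same mouse, or that arrays of a group came from separate litters, so p-values measure the spread between these arrays. The fits were tested on simulated data. Alternatives were other samples, variance models, normalizations, filters and thresholds. The cerebellar arrays entered the fit of 24 group means over all 72 arrays and were otherwise used only to check the P15 array.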

Additional observations from a re-analysis of the deposited data

Results flagged for a closer look

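Of 192 pairs of a described gene and a region, 20 held an array far from the other 5 by Dixon's test, 9 of them low and 11 high, where chance gives about 1 in 20. The hippocampus array of disomic replicate 3 gave 9 of them: it was the lowest hippocampal array for Calb2 (7.08), Gfap (6.59), Crym (10.03), Fgfr1 (8.50) and Gabra4 (6.36), all higher in the hippocampus, and the highest for Pou3f2 (5.71), Nwd2 (7.42), Sla (9.26) and Robo2 (7.38), all lower in the hippocampus. So for each of the 9 it lay on the cortical side of the other hippocampal arrays.

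The other hippocampal values that stood apart were those of Ts1Cje replicate 2, highest for Ak4 (7.57) and Fosl2 (9.94), and of disomic replicate 1, lowest for Gabra5 (9.53) and Nr4a3 (10.05). In the cortex, Ts1Cje replicate 3 was highest for Ndnf (5.96) and Dynlrb2 (5.05) and lowest for Gria1 (7.98), disomic replicate 1 was highest for Vim (11.12) and Slit3 (3.95), Ts1Cje replicate 1 was lowest for Sema3a (6.06), and Ts1Cje replicate 2 was highest for Ttr (8.71).

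The region difference at P1 departed from the mean of the later ages for 25 of the genes described, by limma's test of the difference itself with all 48 arrays. These include the P15 array that correlated with the cerebellum, and all 25 stayed called without it. P1 minus later was positive for Nhlh2 (2.22), Reln (1.33), Hopx (1.93), Gfap (1.30), Slc1a2 (1.71), Neurog2 (1.28), Gabra4 (1.92), Fos (2.78), Dusp14 (3.63), Rasgef1b (3.54), Htr2c (2.67), Nr4a2 (1.38), Cplx3 (1.42) and Sema3a (1.44). It was negative for Prox1 (-1.57), Fibcd1 (-3.20), Npy2r (-3.11), Bok (-1.96), Pou3f2 (-2.10), Ntsr1 (-1.67), Inhba (-1.45), Unc5c (-2.37), Plxna4 (-1.72), Myo5b (-3.08) and Ccbe1 (-3.79). These genes were chosen for the size of the departure or for their list, so that the count is a description.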

How the results depend on the processing

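The 1461 probe sets called between hippocampus and cortex, 791 higher and 670 lower, fell to 1000 (520 higher) with 24 group means over 72 arrays, to 760 (376 higher, 384 lower) with a mean of at least 5, to 564 (307 and 257) with a difference of at least 1, and to 875 (525 and 350) with 1 probe set per gene. Disomic mice alone gave 188 (97 and 91) and Ts1Cje mice alone 351 (180 and 171), with 3 arrays a region. Without the 3 cortical arrays low in Col3a1, 691 were called (333 and 358), and without the 3 hippocampal arrays high in Ttr, 865 (460 and 405), both chosen after seeing the data. Leaving out single arrays gave 1076 to 1775 in all, 578 to 952 higher and 484 to 823 lower. The difference of no called gene described at P1 changed sign, but lower calls outnumbered higher ones with a mean of at least 5 and without the cortical arrays low in Col3a1. The departure of P1 from later ages gave 1371 to 1562, 751 to 932 and 590 to 665 without single arrays, and 785 (471 and 314) with a mean of at least 5, and the P15 difference of Reln was -0.21 without the P15 array and 0.14 with it. The change with genotype stayed at 0.

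Samples of the same genotype and replicate number correlated in their deviations at 0.229, 0.317 and -0.00176 in Ts1Cje and at 0.658, 0.339 and 0.593 in disomic mice. Both arrays high in Xist were of Ts1Cje replicate 3. The numbers were not taken as pairs in the main fit, because the labels do not say that a number marks a mouse. With a replicate block 1853 probe sets were called, with a random one 1726, and in the comparison of ages 2186, of which 1018 lower at P1. The change with genotype was called on 0 with the replicate block (1356 at an unadjusted p under 0.05). Each of the 90 called genes described stayed called with both blocks, and Eomes (adjusted p = 0.0283 and 0.0377 with the random block), Ttr (0.0227, fixed block), Nts (0.0349, random block) and Slc1a3 (0.04, random block) became called. With the 24 group means 63 stayed called, and Bdnf, Bok, Cbr3, Clu, Cplx3, Crym, Epha4, Fibcd1, Fos, Gabra4, Gabra5, Gabrb1, Grik4, Homer1, Lhx1, Mpped1, Npy2r, Nr4a2, Nr4a3, Plxna4, Ppp1r1b, Reln, Slit2, Wfs1, Zfpm2, Zic1 and Zic5 were not called. That fit held the P15 array that correlated with the cerebellum, and its part in these lost calls was not tested.

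The deposited values hold no detection calls or probe signals, so low genes such as Cplx3 or Trp73 cannot be set against background. The p-values of the region comparison rest on each probe set's own spread (9 degrees of freedom) and on the spread limma shares across probe sets (3.12). The cause of the lower counts was not tested, apart from the fewer arrays or probe sets that several settings hold.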
